A study of Homo sapiens with 7 samples.

Results

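The short arm of chromosome 17 (17p) held 868 of the 64657 MYCN summits called in Kelly neuroblastoma cells. A summit is a position of locally highest signal from chromatin immunoprecipitation and sequencing (ChIP-seq). Members were chosen by position alone, as every summit on chromosome 17 below 22200000 on the human build hg19, which places the limit just before the centromere. They lay in 627 separate intervals that together covered 283 kb, or 1.27% of the arm. The last summit inside the limit, at 22194150, had a fold enrichment of 6.0, and the first outside it, at 22202762, had 4.45. Fold enrichment is the authors' ratio of the ChIP pileup to the local background at a summit.

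Kelly is an established human neuroblastoma line with amplified MYCN and a mutated, constantly active ALK, a receptor tyrosine kinase. The labels describe TAE684-sensitive cells given DMSO and TAE684-resistant cells given 1 µM of the ALK inhibitor TAE684, each for 48 h before ChIP. The 7 samples are 2 MYCN ChIP and 1 input of sensitive cells, and 2 MYCN ChIP and 2 inputs of resistant cells, and both states are forms of this 1 line. Input is sheared chromatin sequenced without immunoprecipitation. The lists named for the states were identical, so the 868 rows of the arm were the same in both, and all 64657 peak names in the list of the resistant cells carried the name of the sensitive one. Every value below therefore describes sensitive, DMSO-treated cells, and no comparison of the states was made. A list for both ChIP samples together gives no replicate error, so no difference below has a test across samples. Intervals for counts, shares and medians are 95% intervals for counting error only.

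MYCN is a basic helix-loop-helix protein that binds DNA with its partner MAX, most firmly at E-box sequences, and in cells with much MYCN it is found at most active promoters and at many enhancers. Gain of the long arm of chromosome 17 (17q) is among the commonest chromosome changes of neuroblastoma. The part of the short arm toward the centromere is rich in long repeated blocks, in which short reads are hard to place. The gene annotation at hand is on another build, so no site was assigned to a gene. Genes named below are placed in a whole bin by their textbook map position, as background and not from the files.

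MYCN summits were denser on 17p than over the other autosomes, taken as chromosomes 1 to 16 and 18 to 22. The arm held 39.1 summits per Mb, against 21.2 per Mb over the 2798 Mb of the other autosomes counted up to each last peak. The ratio was 1.84 (95% CI 1.72 to 1.97). The arm lay below 17q, with 50.8 per Mb (ratio 0.77, 95% CI 0.714 to 0.831), and below chromosome 19, with 56.0 (ratio 0.698, 95% CI 0.647 to 0.752). Counted over 51.2 Mb, up to its last peak, chromosome 22 held 35.3 (ratio 1.11, 95% CI 1.02 to 1.20). Sequence to which no read can be placed was not taken out of that length. Which of 17p and chromosome 22 was denser over readable sequence was therefore not tested. When the other autosomes were cut into 117 stretches of the arm's length, 112 had a lower density and 5 a higher one. These lengths include sequence to which no read can be placed, and copy number was not accounted for.

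The density was far from even along the arm. In its 22 full bins of 1 Mb the number of summits ran from 5 to 124, with a median of 32 and quartiles of 10.3 and 58.3. For the 2790 bins of the other autosomes the median was 15 and the quartiles 5 and 29. Of the 22 bins, 15 lay above that median of 15. The densest 10% of the other bins held at least 51 summits each, and 6 of the 22 arm bins (27.3%) reached that number. No arm bin was empty, whereas 280 bins of the other autosomes (10.0%) were. The other bins include centromeres and further sequence to which no read can be placed, while the arm was cut before its centromere. Empty bins also count in the median of 15 and its quartiles, so the contrast depends in part on how the bins were drawn.

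**Figure D1:**
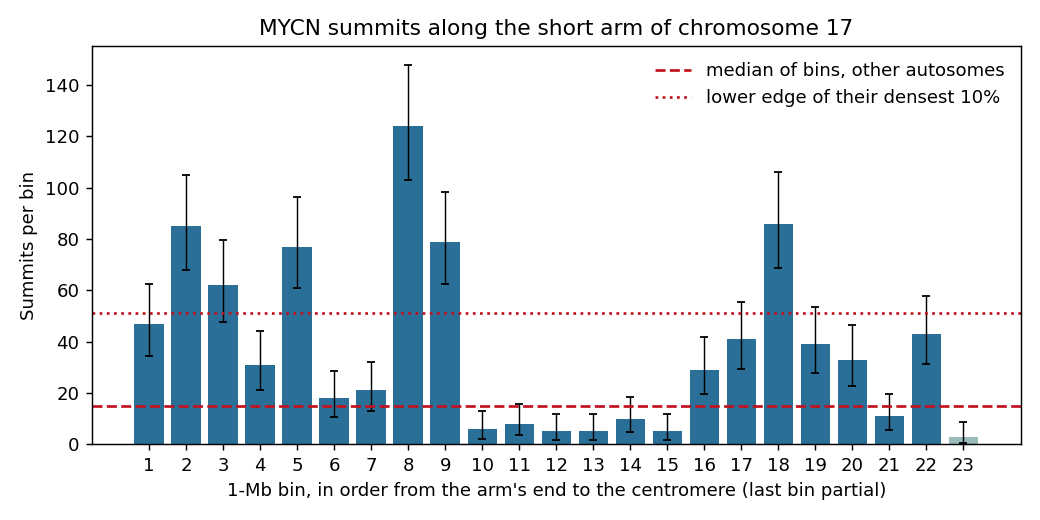
Summits in each 1-Mb bin of the short arm, from the end of the arm (bin 1, the first Mb) to the limit near the centromere (bin 23, partial). Bars are counts, error bars exact 95% Poisson intervals, and red lines the median of 15 and the lower edge of 51 of the densest 10% of bins on the other autosomes. Bin 8 reached 124 and bins 10 to 15 held 5 to 10 each.

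The densest bin ran from 7 to 8 Mb. It held 124 summits (95% CI 103 to 148) in 84 intervals, more than 99.8% of the bins of the other autosomes, of which 6 held more. By textbook map position this bin holds POLR2A, the large subunit of RNA polymerase II, EIF4A1, a helicase of translation initiation, and KDM6B, a histone H3 lysine demethylase. The bin from 17 to 18 Mb followed with 86 summits (95% CI 68.8 to 106). Its textbook residents include RAI1, a chromatin-associated regulator, SREBF1, a regulator of lipid synthesis genes, and the tumour suppressor FLCN. The bin from 1 to 2 Mb held 85 (95% CI 67.9 to 105), and there lie the repressor gene HIC1, the adaptor gene CRK and RPA1, which codes for a single-strand DNA binding protein. The counting intervals of the second and the third bin overlapped almost fully, so their order is not resolved. Together the 3 bins held 295 summits, or 34.0% of the arm.

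Dense bins lay mainly in the first 9 Mb and the sparsest ones in the middle of the arm. Toward the centromere only the bin from 17 to 18 Mb, with 86 summits, reached 51. The bins from 11 to 12, 12 to 13 and 14 to 15 Mb held 5 summits each (95% CI 1.62 to 11.7), the fewest on the arm. Of the bins of the other autosomes, empty ones included, 24.6% held fewer. Described as 3 stretches, which were drawn after the bins were seen, the first 9 Mb held 544 summits, or 60.4 per Mb. The 6 Mb from 9 to 15 held 39, or 6.50 per Mb and 4.49% of the arm. The remaining 7.2 Mb held 285, or 39.6 per Mb. The sparse middle is known for the cluster of muscle myosin heavy chain genes and for MAP2K4, a kinase upstream of JNK. It also contained the longest stretches without a peak, from 14212829 to 15074850 (862 kb, ending just past it), from 11924594 to 12692718 (768 kb) and from 9479330 to 10231003 (752 kb).

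**Figure D2:**
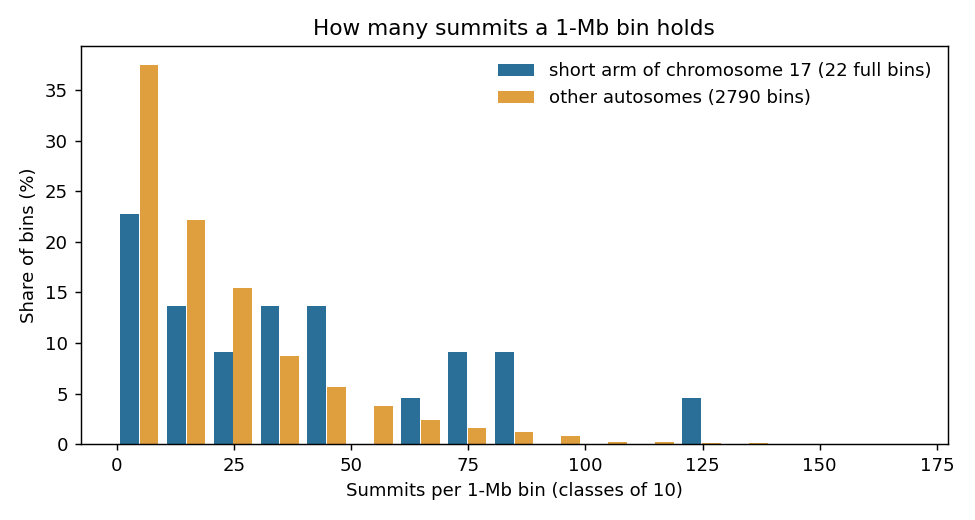
Share of 1-Mb bins (vertical axis, percent) that hold a given number of summits (horizontal axis, classes of 10), for the 22 full bins of the short arm and the 2790 bins of the other autosomes. Of the arm's bins 22.7% held fewer than 10 summits, against 37.5% elsewhere, where empty bins are included. The arm's bins at 60 and above lie in classes that each hold at most 2.40% of the other bins.

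Fold enrichment on 17p was close to that of the other autosomes. Its median was 5.32 (95% CI 5.08 to 5.58) with quartiles of 3.75 and 7.59, against a median of 5.37 with quartiles of 3.92 and 7.56. Of the 117 stretches of the arm's length, 30 had a lower median fold and 87 a higher one. Among the 21 such stretches with at least 30 summits per Mb, 15 had a lower one. A fold enrichment of at least 10 was reached by 111 summits of the arm, or 12.8% (95% CI 10.6 to 15.2). Over the other autosomes that share was 12.1%, so the arm's share was near the background. At least 20 was reached by 2 summits, or 0.23% (95% CI 0.0279 to 0.830), against 0.784% on the other autosomes. Since no summit of the list had more than 280 ChIP fragments, a fold of 20 could be reached only with a local background of about 8 input fragments or less.

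How many ChIP and input fragments stood behind each value was worked out from its fold and p-value, which was possible at all 868 summits. A 17p summit had a median of 72 ChIP fragments (quartiles 50 and 113), against 63 (quartiles 40 and 102) on the other autosomes. For the local background the median was 8.26 input fragments (quartiles 6.10 and 11.0), against 7.42 (quartiles 4.0 and 10.5) elsewhere and a genome-wide mean of 1.61. Both parts of the ratio were thus higher on the arm than on the other autosomes as a whole. The same held for the medians of ChIP fragments and background on 17q (82 and 11.1). It also held on chromosome 19 (71 and 9.0) and chromosome 22 (81 and 11.6). On 17p, 9 summits (1.04%, 95% CI 0.475 to 1.96) had a background at the genome-wide mean, compared with 7.27% on the other autosomes (95% CI 7.07 to 7.49). This share was low as well on 17q (1.64%), chromosome 19 (0.694%) and chromosome 22 (0.664%). At the other end, 7 summits (0.806%) held at least 252 fragments, 90% of the list's highest number, as did 0.590% on the other autosomes. The highest background on the arm was 21.0 input fragments, while that of the list was 126, on chromosome 2, the chromosome of the amplified MYCN gene.

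Against its own long arm, 17p had fewer summits per Mb, a lower background and a larger share of summits with a fold of at least 10. The median background was 11.1 input fragments on 17q. It was above 12 at 41.8% of 17q summits (95% CI 40.1 to 43.6) but at 13.2% of 17p summits (95% CI 11.1 to 15.7). The median fold enrichment of 17q was 4.77, and 6.85% of its summits reached 10 (95% CI 5.97 to 7.82), where 17p had 12.8%. This difference was not particular to 17q. The share was 8.99% on chromosome 19 (95% CI 8.04 to 10.0) and 6.42% on chromosome 22 (95% CI 5.33 to 7.65). At a fold of at least 20 the shares were 0.334% on 17q (10 summits, 95% CI 0.160 to 0.614) and 0.23% on 17p, with overlapping intervals. Part of the background can be read over wider windows. At 54 summits of 17p the background came from a 10-kb window, and the median there was 323.5 input fragments per 10 kb, against 344.5 at 228 summits of 17q and 212 at 3511 of the other autosomes. MACS2 keeps whichever window is highest at a summit, so these medians describe such summits and not whole arms.

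At like background, fold enrichment on 17p stayed near that of the other autosomes. With a background of 4 to 8 input fragments, the 336 summits of the arm had a median of 5.43 (95% CI 5.08 to 5.76), against 5.10 elsewhere. With 8 to 12, the 342 summits had a median of 5.36 (95% CI 4.93 to 5.87), against 4.96 elsewhere and 4.49 on 17q (95% CI 4.27 to 4.76). These counting intervals of 17p and 17q did not overlap. Above 12 the median of 17p was lowest, at 4.03 over 115 summits (95% CI 3.68 to 4.61). It was 4.51 on the other autosomes (95% CI 4.44 to 4.59) and 4.55 on 17q (95% CI 4.38 to 4.70). Both intervals overlap that of 17p. In this class the share at a fold of at least 10 was highest on 17p, at 6.96%. It was 3.11% elsewhere and 3.35% on 17q, with overlapping intervals. The class has no upper bound, and its background reached 21.0 on 17p, 31.0 on 17q and 126 elsewhere. Weighted by the arm's summits, the median on 17p was 0.23 higher than on the other autosomes over all classes of background. With the counting interval of the arm's overall median fold laid around it, this difference ran from -0.0151 to 0.478, which includes 0. That is not an interval of the weighted difference itself, so whether it differs from 0 was not tested.

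**Figure D3:**
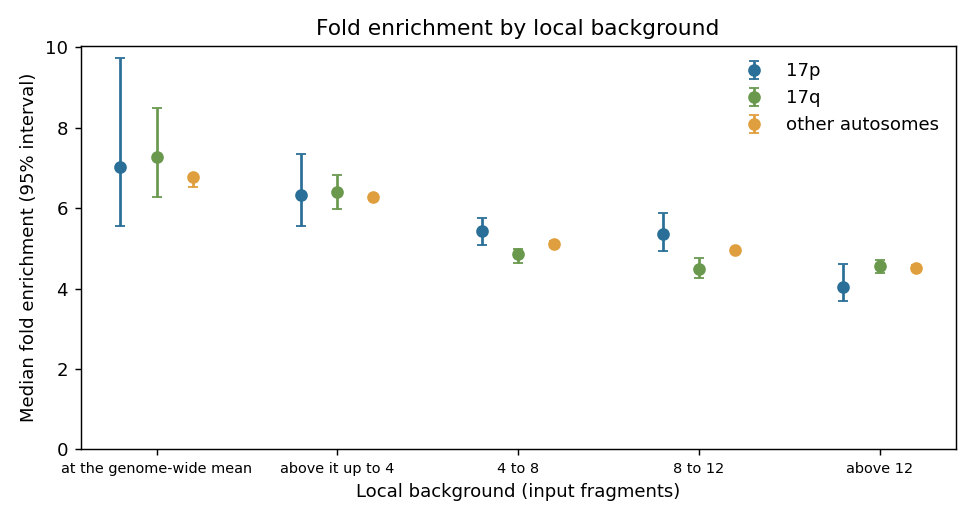
Median fold enrichment (vertical axis) in 5 classes of local background (horizontal axis, input fragments) for the short arm (17p), the long arm (17q) and the other autosomes, with 95% intervals of the median from counting error. Medians fall from left to right, except for 17q in the last class, and 17p lies at 5.36 against 4.49 for 17q where the background is 8 to 12.

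Along the arm the median fold enrichment varied less than the number of summits. Among the 22 full bins it ran from 3.81 (14 to 15 Mb, 5 summits) to 8.31 (13 to 14 Mb, 10 summits). Both extremes lay in the sparse middle, where a median rests on few values. The 3 densest bins had medians of 5.40, 5.24 and 5.01. The bin from 5 to 6 Mb, with 18 summits, had 7.34 with a median of 102.5 ChIP fragments, and 5 of its 18 reached a fold of 10. The bin from 3 to 4 Mb had 4.53 and the highest median background of the arm, 10.2 input fragments.

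**Figure D4:**
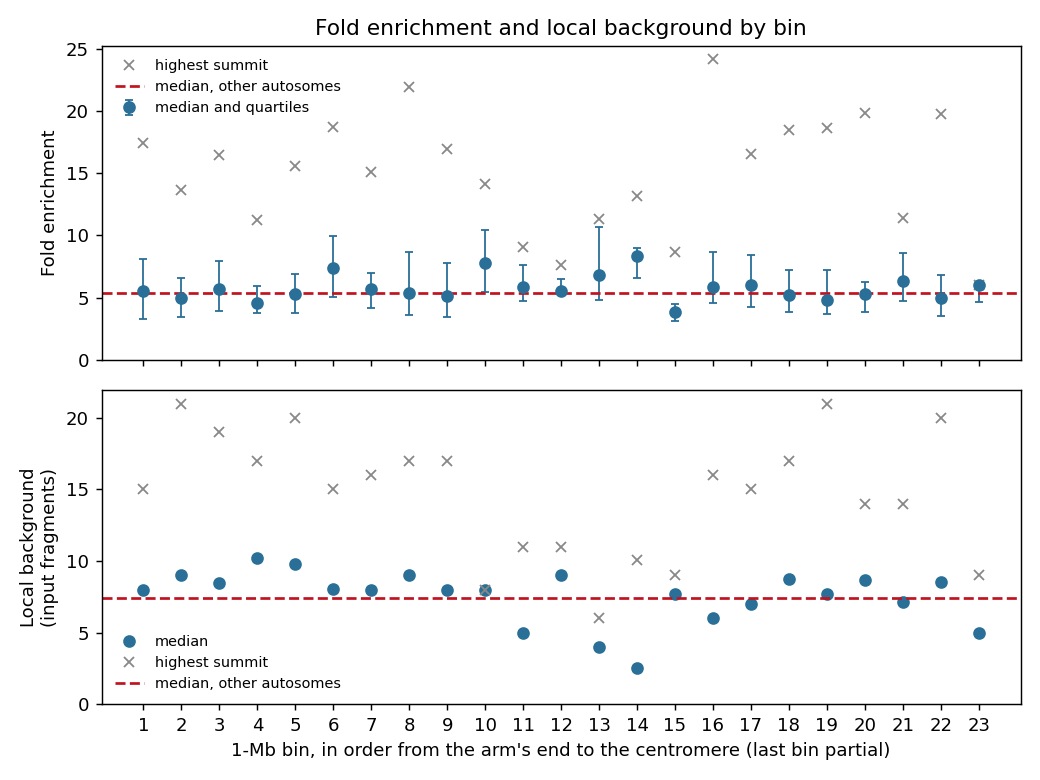
Fold enrichment (upper panel) and local background in input fragments (lower panel) for each 1-Mb bin in order along the arm. Circles are medians, bars in the upper panel quartiles, crosses the highest summit of the bin, and red lines the medians of the other autosomes (5.37 and 7.42). Bin 14 (13 to 14 Mb) combines the highest median fold, 8.31, with the lowest median background, 2.5.

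Between the 3 stretches the background moved with the density. The median background was 8.82 input fragments in the first 9 Mb, 6.0 in the middle and 8.0 in the last stretch, and the median fold ran the other way at 5.22, 6.34 and 5.39. In the first 9 Mb, 0 of 544 summits had a background at the genome-wide mean (up to 0.676% by the exact interval), against 4 of 39 in the middle. None of the 39 middle summits had a background above 12, as 77 of the 544 had. Fold enrichment divides by this background, and the part it has in these medians was not tested.

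Bins of like density elsewhere gave a further comparison. In bins with 70 or more summits, the 5 bins of 17p held 451 summits with a median fold of 5.16 (95% CI 4.81 to 5.48), and the 120 bins of the other autosomes had 4.86 (95% CI 4.81 to 4.91). A fold of at least 10 was reached by 12.6% of these 17p summits (95% CI 9.71 to 16.1) and by 8.63% of the others (95% CI 8.10 to 9.18). The median backgrounds were 9.0 and 9.24, and both had a median of 75 ChIP fragments. In bins with 40 to 69 summits the medians were 5.57 for 17p (95% CI 5.02 to 6.02) and 5.16 for the others (95% CI 5.10 to 5.21). In bins with 10 to 39 they were 5.44 (95% CI 4.96 to 5.99) and 5.64 (95% CI 5.59 to 5.68). All these intervals of the medians overlapped. Pooled over the 5 bins with 70 or more summits, the intervals of the share at a fold of at least 10 did not. The single bins ranged from 7.06% (1 to 2 Mb) to 16.1% (7 to 8 Mb), and the latter gave 20 of the 57 summits. Without it the share was 11.3% (95% CI 8.09 to 15.3), which overlaps that of the others. In bins with 40 to 69 summits these shares were 11.4% (95% CI 7.28 to 16.7) and 10.6% (95% CI 10.1 to 11.1), which overlap.

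Intervals on 17p were wider than those of the other autosomes as a whole. The median width was 321 bp (95% CI 298 to 353) with quartiles of 209 and 596, against 277 bp with quartiles of 190 and 513 on the other autosomes and 323 bp on chromosome 19. Of the 117 stretches of the arm's length, 111 had a lower median. Short intervals of at most 200 bp made up 22.8% on 17p (95% CI 19.6 to 26.3) and 29.1% elsewhere (95% CI 28.7 to 29.6). Intervals of at least 1000 bp numbered 48, or 7.66% (95% CI 5.70 to 10.0), near the 6.78% of the other autosomes. In bins of like density, the medians were 351 bp on 17p and 312 bp elsewhere with 70 or more summits, 288 and 286 bp with 40 to 69, and 330.5 and 264 bp with 10 to 39, and 228 and 230.5 bp with fewer than 10. The difference in width was thus not found at every density. The first 9 Mb had a median of 351.5 bp, the middle 297.5 bp and the last stretch 292 bp.

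Of the 627 intervals, 460 had only 1 summit, or 73.4% (95% CI 69.7 to 76.8), against 76.6% elsewhere. A pair was found in 110 intervals (17.5%), 3 summits in 46 (7.34%, 95% CI 5.42 to 9.66, against 5.10% elsewhere) and 4 or more in 11. Those 11 are 1.75% (95% CI 0.879 to 3.12), against 2.65% on the other autosomes. In the sparse middle 34 of 36 intervals had 1 summit. Neighbouring summits inside an interval lay a median of 299 bp apart on 17p and 298 bp elsewhere. In intervals with 1 summit, the summit sat at a median of 48.9% of the width from the start, close to the centre, as elsewhere (49.3%).

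The highest fold of an interval rose with its number of summits, from a median of 5.34 where it had 1 to 7.14 for a pair, 7.84 for 3 and 11.4 for 4 or more. On the other autosomes the medians were 5.44, 6.997, 7.94 and 8.87. The value of 11.4 rests on 11 intervals. A highest value also grows with the number of summits it is taken from.

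**Figure D5:**
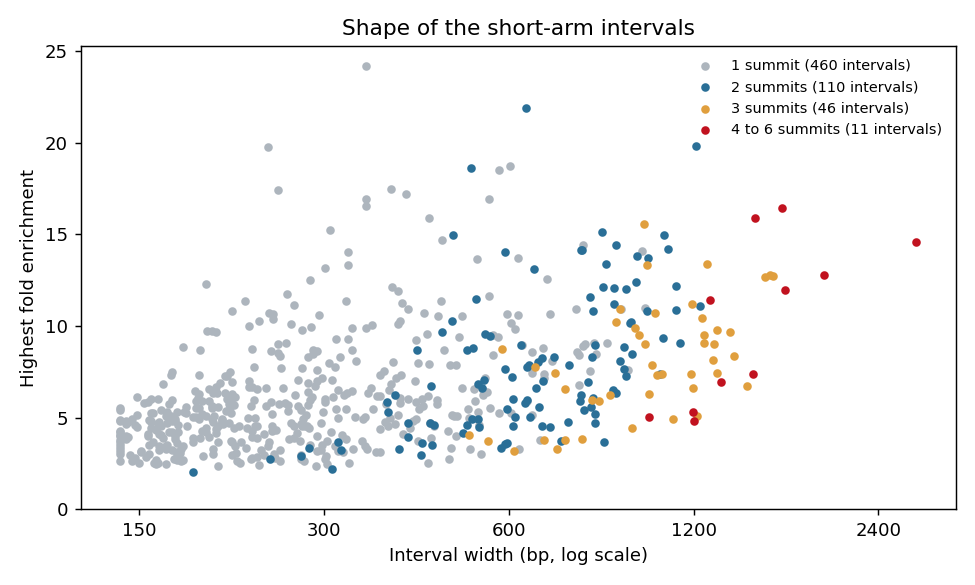
Width (horizontal axis, bp, log scale) and highest fold enrichment (vertical axis) of the 627 intervals of the short arm, coloured by their number of summits. Intervals with 4 to 6 summits lie at the wide end, up to 2760 bp, while the highest value, 24.2, belongs to a narrow interval of 352 bp with 1 summit.

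The widest interval of the arm ran from 2302811 to 2305570. It spanned 2760 bp and held 5 summits, with fold enrichments of 14.6, 6.54, 10.8, 8.19 and 8.11 in order of position. The same bin, from 2 to 3 Mb, held the fourth widest, from 2295821 to 2297490, which also had 5 summits and reached 16.5. By textbook map position this bin holds MNT, the gene of a repressor that binds DNA with MAX as MYCN does. The interval with most summits, 6, ran from 4870054 to 4871746. One of its summits reached 11.99 with 182 ChIP fragments, while the other 5 lay between 2.27 and 4.95. The remaining ones of the 5 widest ran from 17685221 to 17687175 (1955 bp, 4 summits, highest fold 12.8) and from 17108809 to 17110424 (1616 bp, 3 summits, 12.8). At 4 of these 5 intervals the nearest other interval was at most 1.11 kb away.

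The intervals of the arm lay close together. Another interval was found within 10 kb of 438 of them, or 69.9% (95% CI 66.1 to 73.4), against 59.1% on the other autosomes (95% CI 58.6 to 59.5), 72.1% on 17q and 72.0% on chromosome 19. The share was 78.6% in the first 9 Mb, 27.8% in the middle and 61.5% in the last stretch. The median gap from one interval to the next was 10.2 kb on 17p and 18.1 kb elsewhere. Gaps under 1 kb made up 20.1% of the arm's 626 gaps and 16.3% of those elsewhere, and such neighbours can be pieces of 1 enriched stretch. In bins with 70 or more summits the shares with a neighbour within 10 kb were 85.2% on the arm and 80.6% on the other autosomes. In bins with 10 to 39 they were 41.3% and 49.8%, so the closer spacing of the whole arm was not found at every density.

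The strongest site of the arm lay from 15207252 to 15207603, with its summit at 15207423. It had a fold enrichment of 24.2, a −log10 q of 123.2 and 187 ChIP fragments over a background of 4.0, and it ranked 204 in the whole list. Its bin, from 15 to 16 Mb, holds by textbook map position the myelin gene PMP22 among others. The site was not assigned to that gene or to any other. The next site, from 7146118 to 7146758, reached 21.9 with 200 ChIP fragments and lay in the densest bin. It was followed by sites from 19770308 to 19771517 (19.8) and from 21023012 to 21023254 (19.8). The latter had 85 ChIP fragments over a background of 1.81, where the former had 246 over 7.0. Equal folds therefore stood on different depths.

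The fifth, from 5371925 to 5372527, had a fold of 18.7 and the most ChIP fragments of these sites, 265, with the highest −log10 q of the arm, 149.8. Its fold was near 19.8, the most that 280 fragments would give over its background of 8.12. The sites from 18684359 to 18684879 and from 17990955 to 17991532 reached 18.7 and 18.5. The last 3 sites of the 10, from 505189 to 505574, from 15732126 to 15732378 and from 7960902 to 7961309, reached 17.5, 17.4 and 17.2 with 97, 80 and 79 ChIP fragments. The eleventh summit, at 16.9, was close behind, so the number 10 marks no step. Of the 10 sites, 7 were alone in their interval, 4 had a neighbour within 10 kb, and they lay in 8 different bins. Over all 627 intervals of the arm, 73.4% had 1 summit and 69.9% had a neighbour within 10 kb.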

How the data were processed

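MYCN ChIP and input libraries of Kelly cells were sequenced by the submitters, and 1 peak list per state was used. Per the submitters' processing notes, the build was hg19 and the tools were MACS2 2.1.1, deepTools 2.2.4, STAR 2.5.1b, Picard and SAMtools 1.3.1. Their settings, and how the ChIP samples were joined, are not stated in these notes. The authors deposited, for each summit, a fold enrichment (a ratio), a −log10 p-value, a −log10 q-value and an integer score, which equalled 10 times the −log10 q without decimals at all 64657 rows. No value of a single replicate was used.

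Positions are counted from 1. Fold and p were solved together under the MACS2 relations (pileup plus 1 over background plus 1, Poisson upper tail), with a single ChIP-to-input scale of 0.641. This gave whole ChIP fragment numbers at 64657 of 64657 summits within 0.0005 of the −log10 p. The procedure was tested on simulated data. ChIP fragments were 1.56 times the input fragments. Backgrounds on steps of a 140-bp fragment per 10 kb, and on no coarser step, were read as 10-kb windows (tolerance 0.001).

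Shares carry exact (Clopper-Pearson) 95% intervals, counts exact Poisson intervals, density ratios exact conditional intervals, and medians order-statistic intervals. These describe counting error alone, because PCR copies cannot be told from separate molecules here and summits close together depend on each other. No p-value was computed. Named are the 10 summits of highest fold, the 5 widest intervals, those with most summits, the 3 densest and 3 sparsest bins and the 3 longest gaps. Members and lists were chosen with earlier results of these data known. Thresholds, counting per interval, bin layout, neighbour distance and comparison group were varied. Python 3.11.15, numpy 2.4.6, pandas 2.3.3, scipy 1.17.1 and matplotlib 3.10.9 were used. E-boxes and gene assignment were not analysed here.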

Additional observations from a re-analysis of the deposited data

How the results depend on the processing

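No paired analysis was possible because the ChIP samples share 1 list, which also leaves no replicate to omit. The E-box alternative was not run, since no sequence of the files' build was used. In 21 of 37 alternatives the value stayed within its counting interval or, for counts, within 1.5 times. The density ratio of 1.84 became 1.97 at a −log10 q of 10 or more, 1.68 over bins with at least 1 summit, 1.66 without the densest bin and 1.55 over bins with 10 or more summits. The median fold of 5.32 was 5.79 at a −log10 q of 5 or more (5.80 on the other autosomes), 6.51 at 10 or more (6.78) and 5.79 for the strongest summit of each interval (5.80). The share at a fold of 10 or more, 12.8%, was 18.7% at a −log10 q of 10 or more (18.9%) and 15.9% for the strongest summits (15.2%). At that threshold the median width was 412 bp (379 bp), the share of intervals with 1 summit 78.1% (78.8%) and that with a neighbour within 10 kb 61.3% (47.3%). That last share was 55.8% at 5 kb (46.9%) and 84.7% at 20 kb (72.6%). The median background was 8.0 for the strongest summits (6.86). With bins of 2 Mb, 3 of 11 bins lay in the densest 10%. The bins with 10 or more summits, and leaving out summits near the highest fragment number, were chosen after seeing the data, as was leaving the densest bin out of the share in bins with 70 or more summits. No summit of the arm had fewer than 18 ChIP fragments.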

Other observations

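Ranking the arm's summits by ChIP fragments in place of fold brought other sites forward. The most fragments, 273 and 271, were found at summits in the intervals from 17494574 to 17495572 and from 21219901 to 21220672. Both stood over a background of 15, and their folds were 11.0 and 10.9, close to the 11.3 that 280 fragments would give there. The 50 summits of highest fold and the 50 with most fragments shared 27, or 54% of each. Fold is computed from fragments, which makes some overlap certain. Median backgrounds were 7.77 for the summits of highest fold and 10.4 for those with most fragments, and median widths were 677 and 894.5 bp.

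The summit with the highest background on the arm, 21.0 input fragments, lay in the interval from 1952926 to 1954067 and still reached a fold of 6.60 with 225 ChIP fragments. In the same bin, from 1 to 2 Mb, lies HIC1 by its textbook map position. A further summit at 21.0, in the interval from 18966808 to 18967036, had 134 fragments and a fold of 3.95. The lowest fold of the arm, 2.02, was listed for 2 summits only 6 bp apart, at 8192452 and 8192458, with the same 52 ChIP fragments and the same background of 16. It was the 1 pair on the arm within 10 bp, of 241 neighbouring pairs inside intervals, and 8 such pairs of 16892 were found in the whole list.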
